A study of Mus musculus with 7 samples.

Results

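Aldolase, pyruvate kinase and hexokinase each exist as several isozymes, and the forms found in fetal and growing tissue differ from those of the adult hepatocyte. They were followed here in mouse liver lacking miR-122, the most abundant microRNA of hepatocytes, through 8 genes: the aldolases Aldoa and Aldoc, the pyruvate kinases Pkm and Pklr, the hexokinases Hk1, Hk2 and Hk3, and Gckr, which encodes the regulatory protein of glucokinase. Every probe set of the Affymetrix mouse array whose platform annotation names exactly 1 of these genes was taken, which gave 17 of the 45037 probe sets tested (8 of 18193 named genes). These were 5 probe sets of Aldoa, 3 of Pklr, 2 each of Aldoc, Hk1 and Hk3, and 1 each of Pkm, Hk2 and Gckr. Glucokinase itself and the third aldolase were not analysed here. Liver RNA came from 3 wild-type mice, called WT-27, WT-103 and WT-104, with 4 mir-122 knockout mice beside them, numbered 03, 90, 91 and 94 and also written as KO-03 and so on. All were on a B6/129 background and 2 months old, with 1 array per animal. The labels do not say which cells lack miR-122, and they give no sex, litter or batch. The comparison asks which isozymes differ when miR-122 is absent.

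Aldolase splits a fructose bisphosphate into the pair of triose sugars that glycolysis goes on to oxidise, pyruvate kinase makes pyruvate and ATP in the last step of the pathway, and hexokinases add the first phosphate to glucose. Aldoa and Pkm are the forms of muscle and of fetal and dividing tissue, and Pklr is the form of adult hepatocytes and, from another promoter, of red cells. Hk1, Hk2 and Hk3 bind glucose tightly and are low in adult hepatocytes, which rely on glucokinase, an enzyme that Gckr holds in the nucleus when glucose is low. Aldoa is a well-known direct target of miR-122.

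Values are log2 expression values from RMA, a method that corrects background, makes the arrays alike in distribution and summarises the probes of each probe set, so 1 unit is a doubling. A level of 1 probe set is not set against that of another, because probes differ in affinity. Array medians lay between 4.65 and 4.71. A floor for levels was set on each array at its brightest bacterial control probe set out of 27, and ranged from 4.71 to 5.23. Of the 17 probe sets, 15 lay above it on all 7 arrays, and 1 each of Aldoc and Hk1 lay at or under it on all 7. The hepatocyte markers were near the top of the scale in all livers, with a list mean of 13.80 to 13.93 in wild type and 13.94 to 14.04 in knockout (6 genes, 0 called by limma, 1 with an unadjusted p under 0.05). The labels do not say whether the animals share parents or a processing day, so p-values measure the spread between these samples only.

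Only Aldoa rose among the 8 genes in limma's moderated test: all 5 of its probe sets passed at an adjusted p under 0.05 over the whole table, and 0 of the other 12 did. Among all 45037 probe sets 1.29% were called higher and 0.32% lower. An unadjusted p under 0.05 was found for 10 of the 17 and for 5997 of all. A weaker criterion, in which every knockout liver lies on one side of every wild-type liver, was met by 7 of the 17 with knockout higher (5 of Aldoa and 2 of Hk1), against 7.25% of all probe sets. It was met with knockout lower by 3 of the 17, all of Pklr, against 5.53% of all. The other 7 probe sets, of Aldoc, Pkm, Hk2, Hk3 and Gckr, overlapped between genotypes. The median difference of the 17 was 0.16, against -0.005 over all probe sets.

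**Figure D1:**
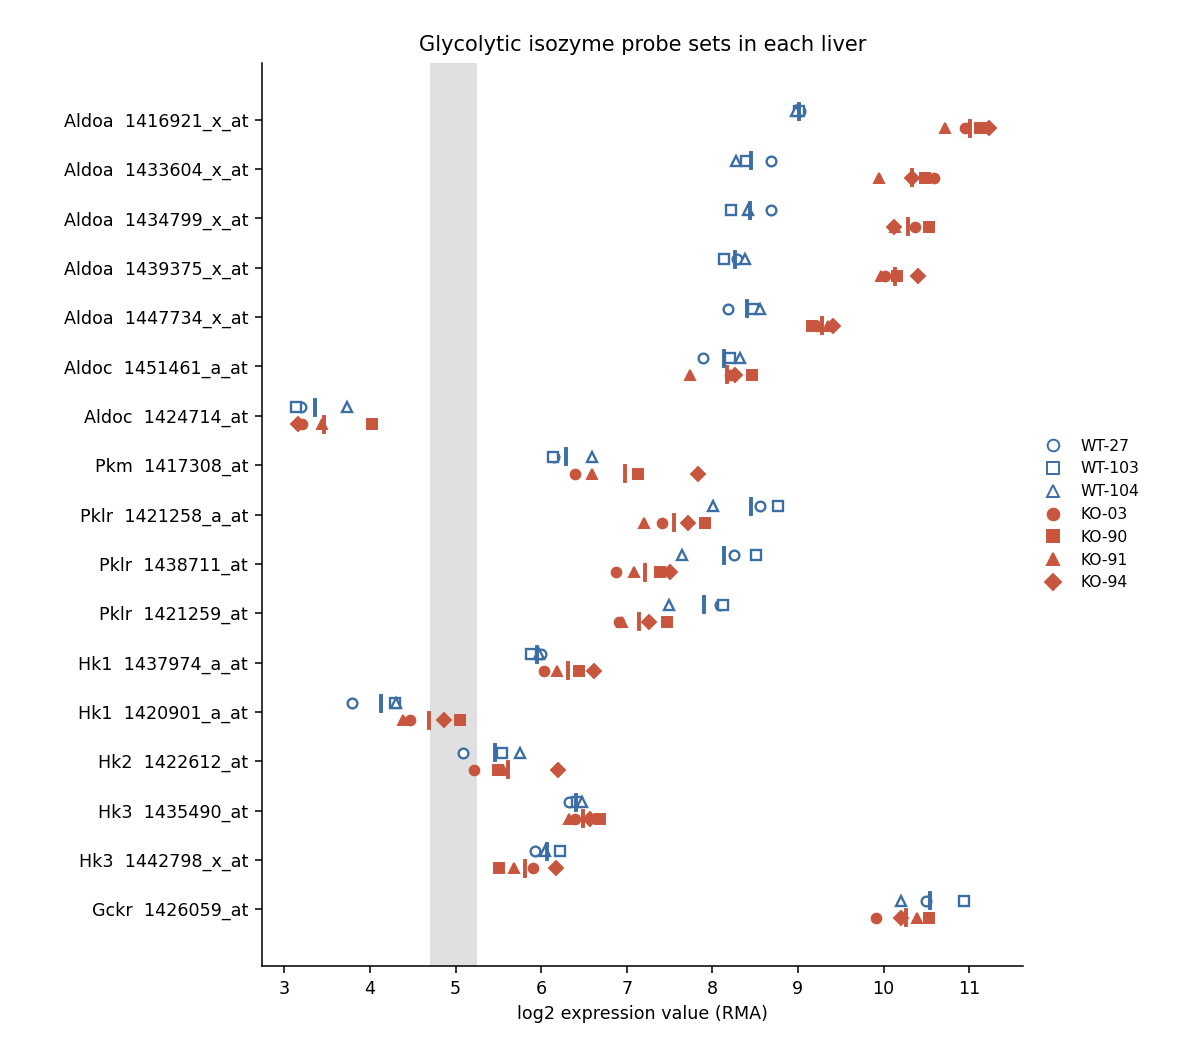
Log2 expression value (x axis) of each of the 17 probe sets (rows) in each liver, open blue for the 3 wild-type and filled red for the 4 knockout animals, with a bar at each group's mean and the range of the floor, 4.71 to 5.23, in grey. The Aldoa groups lie apart on all 5 probe sets, the Pklr groups lie apart by 0.02 to 0.14 with knockout lower, and the Pkm groups overlap with KO-94 highest at 7.83.

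Aldoa, the muscle-type aldolase, was the isozyme whose transcript rose, by 4.0-fold on its brightest probe set. That probe set, 1416921_x_at, read 9.03, 9.01 and 8.98 in WT-27, WT-103 and WT-104, against 10.95, 11.13, 10.72 and 11.23 in knockout livers 03, 90, 91 and 94. The wild-type livers were nearly identical, and the lowest knockout liver lay 1.68 above the highest wild-type liver. The means were 9.01 ± 0.03 (SD, n = 3) and 11.01 ± 0.23 (SD, n = 4), a difference of 2.00 ± 0.14 (SE), with a 95% interval of 1.69 to 2.31 and a limma adjusted p of 0.000678. KO-91 was the lowest knockout liver on this probe set and on 1433604_x_at and 1439375_x_at, whereas on 1434799_x_at it was KO-94 and on 1447734_x_at KO-90.

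The other Aldoa probe sets fall into a group of 3 that differed by nearly as much and 1 that differed by less. Probe sets 1433604_x_at, 1434799_x_at and 1439375_x_at differed by 1.89, 1.85 and 1.87, with limma adjusted p of 0.00195, 0.00143 and 0.000743. Probe set 1447734_x_at read 8.18, 8.47 and 8.56 in WT-27, WT-103 and WT-104, against 9.22, 9.16, 9.35 and 9.41 in knockout livers 03, 90, 91 and 94. Its groups were also apart, by 0.60, but its difference was 0.88 ± 0.13 (SE), a 1.84-fold change, with a 95% interval of 0.59 to 1.17 that lies below those of the other 4 and a limma adjusted p of 0.0140. Without WT-27, WT-103 or KO-91 that probe set lost its call, at limma adjusted p of 0.0548, 0.0683 and 0.0564, while the other 4 were called whichever array was left out. All 5 Aldoa probe sets carry the ending _x_at, by which the array's maker marks probes that can also bind other transcripts, so related transcripts may add to their signal and no Aldoa probe set without that mark was measured.

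**Figure D2:**
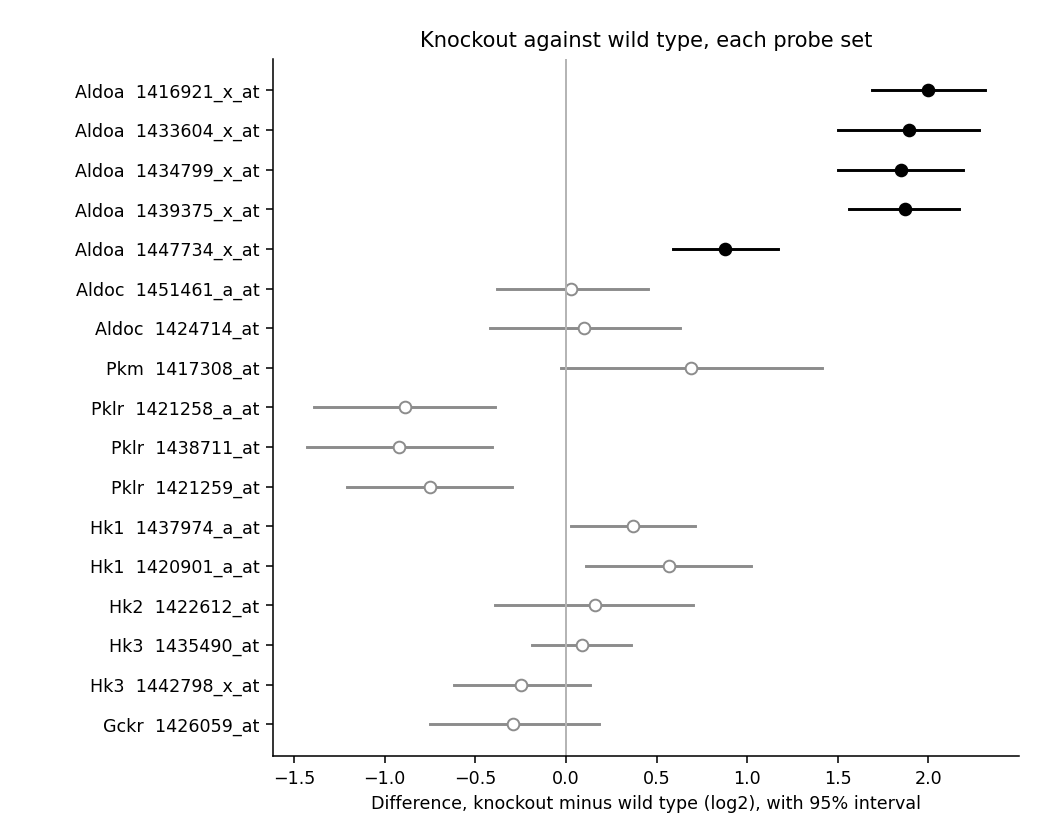
Difference between knockout and wild type on the log2 scale (x axis) for each of the 17 probe sets (rows), with lines for the 95% interval from limma; filled black points passed the adjusted threshold and open grey points did not. The Aldoa intervals lie between 0.59 and 2.31, and the 3 Pklr intervals lie between -1.43 and -0.30.

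Some markers of other cell types also differed between genotypes. Among all 18193 genes, at 1 probe set per gene, 1.87% were called higher and 0.511% lower. In the myeloid list, which includes neutrophil genes, 2 of 12 were called higher by limma, the calcium-binding proteins S100a8 (at least 3.25) and S100a9 (3.16). The mean of the list was 6.54 to 6.98 in wild-type and 7.36 to 8.02 in knockout livers, with Mpo and Itgam at or under the floor in all 7. These 2 called genes weigh heavily in that mean, as the median difference of the list was 0.44. Clec4f (0.01), Csf1r (0.1) and Adgre1 (0.18) differed little. Ptprc (0.56), Cd68 (0.68) and Lyz2 differed by more without being called, and 5 of the 12 had an unadjusted p under 0.05 in limma. In the stellate list 2 of 5 were called, Pdgfrb (1.03) and Dcn (0.90), with list means of 7.96 to 8.07 and 8.35 to 8.68. Des (0.36), Reln (0.34) and Lrat, which went the other way (-0.13), were not called. In the cholangiocyte list 2 of 4 were called, Krt19 (at least 1.10) and Epcam (at least 2.06), with means of 4.60 to 4.80 and 5.22 to 6.17, and Krt7 at or under the floor in all 7. The endothelial and erythroid lists had 0 limma calls in 4 genes each, with 1 and 0 genes at an unadjusted p under 0.05. In the skeletal muscle list, the tissue where Aldoa is highest in the adult, 3 of 4 markers lay at or under the floor in every liver, and its list mean was 4.27 to 4.37 in wild type and 4.22 to 4.40 in knockout. All 3 adipocyte markers lay at or under the floor in every liver, and neither list had a gene called or at an unadjusted p under 0.05. The part of the myeloid, stellate and cholangiocyte genes in the Aldoa values was not tested, and in whole liver a change in the number of cells of a type cannot be told apart from a change in RNA per cell. Of these 6 calls 0 were kept without WT-27 or WT-103, 2 without WT-104 or KO-90 and 1 without KO-91.

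Aldoc, the aldolase of brain, showed no such rise. Probe set 1451461_a_at read 7.89, 8.21 and 8.32 in WT-27, WT-103 and WT-104, against 8.21, 8.46, 7.74 and 8.27 in knockout livers 03, 90, 91 and 94. The knockout livers enclosed the wild-type values on both sides. The difference was 0.03 ± 0.18 (SE), with a 95% interval of -0.38 to 0.45 (limma adjusted p = 0.962), so a doubling lies outside the interval, and its sign turned with array weights, renewed quantile normalization, or without WT-27 or KO-90. The second probe set, 1424714_at, lay at or under the floor in all 7 livers.

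Pkm, the pyruvate kinase gene of fetal and dividing cells, differed by 0.69 ± 0.32 (SE) and did not pass. Its probe set 1417308_at read 6.15, 6.14 and 6.59 in WT-27, WT-103 and WT-104, against 6.39, 7.13, 6.59 and 7.83 in knockout livers 03, 90, 91 and 94. KO-94 and KO-90 lay above all wild-type livers, and KO-03 and KO-91 lay within or at the wild-type range. The 95% interval was -0.03 to 1.41 (limma adjusted p = 0.394), which includes both no difference and more than a doubling. Without KO-94 the difference was 0.41 (limma adjusted p = 0.552). Pkm is expressed in macrophages as well. The mean of the 12 myeloid markers was highest in KO-94, at 8.02, then 7.67 in KO-03, 7.53 in KO-90 and 7.36 in KO-91. The order is not that of Pkm, for which KO-03 was the lowest knockout liver, at 6.39. That mean is weighted by S100a8 and S100a9, both highest in KO-94, and does not stand for macrophages alone. Cd68 and Csf1r were also highest in KO-94, whereas Clec4f and Adgre1 were highest in KO-90. KO-94 was the highest knockout liver for 6 of the 12, KO-90 for 3, KO-03 for 2 and KO-91 for 1. The part of such cells in the Pkm value was not tested.

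Pklr, the adult liver pyruvate kinase, was lower in every knockout liver than in every wild-type liver on all 3 of its probe sets, yet did not pass the test over the whole table. Probe set 1421258_a_at read 8.56, 8.77 and 8.01 in WT-27, WT-103 and WT-104, against 7.41, 7.91, 7.20 and 7.71 in knockout livers 03, 90, 91 and 94. WT-104 was the lowest wild-type liver and lay only 0.10 above KO-90, the highest knockout liver. The means were 8.45 ± 0.39 (SD, n = 3) and 7.56 ± 0.32 (SD, n = 4), a difference of -0.89 ± 0.22 (SE), or 1.85-fold, with a 95% interval of -1.39 to -0.39 and a limma adjusted p of 0.101. Probe sets 1438711_at and 1421259_at differed by -0.92 and -0.75, with limma adjusted p of 0.0996 and 0.123, and their groups were 0.14 and 0.02 apart. WT-104 was the lowest wild-type liver on these as well. Within a liver, 1421258_a_at minus 1438711_at was 0.26 to 0.37 in wild type and 0.11 to 0.53 in knockout. Against 1421259_at it was 0.47 to 0.64 in wild type and 0.25 to 0.49 in knockout, so this pair shifted by -0.14 between genotypes. Array weights, which give less weight to arrays that deviate, brought all 3 past the threshold (limma adjusted p = 0.0227, 0.0215 and 0.0281), and leaving out WT-104 brought 1438711_at past it (limma adjusted p = 0.0480).

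The promoter of Pklr is shown because this gene is a textbook example of control by carbohydrate, through ChREBP (gene Mlxipl) and its partner Mlx, and the promoter of Aldoa because that gene was the one that rose. Each run is the 250 bases before a start of transcription from RefSeq, build GRCm38.p6, at chr3:89136373-89136622 on the + strand for Pklr and chr7:126799255-126799504 on the - strand for Aldoa. All 8 genes matched the promoter table, with 14 starts. Capitals in the Pklr run mark a match to the carbohydrate response element, searched as the words CACGNG and CNCGTG with 5 bases of any kind between them, and capitals in the Aldoa run mark ACGTG, the core shared by hypoxia response elements, which lies here on the other strand.
Pklr: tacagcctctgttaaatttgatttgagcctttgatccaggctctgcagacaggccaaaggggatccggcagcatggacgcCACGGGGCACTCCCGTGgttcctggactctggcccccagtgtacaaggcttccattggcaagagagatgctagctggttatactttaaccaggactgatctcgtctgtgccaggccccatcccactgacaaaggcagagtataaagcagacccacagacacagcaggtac
Aldoa: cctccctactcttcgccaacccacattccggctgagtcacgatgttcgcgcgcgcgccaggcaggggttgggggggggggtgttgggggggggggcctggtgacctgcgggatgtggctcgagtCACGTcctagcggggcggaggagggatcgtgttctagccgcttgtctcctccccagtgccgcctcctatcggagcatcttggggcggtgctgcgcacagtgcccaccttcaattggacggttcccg

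The Pklr match begins 170 bases before the start, and such a match was found on either strand in 0.0396% of the 32851 windows of the same length, 13 windows in all. None of the other 13 windows of the 8 genes held it. The core ACGTG was found in 5 of the 14 windows, of Aldoa, Hk2, Hk3 and Pkm, and in 16.6% of all windows. In Aldoa it begins 126 bases before the start shown and 202 bases before another start. The E-box CACGTG, which contains that core, was in 0 of the 14 windows and 6.02% of all. The GC box GGGCGG was in 5 of the 14 windows, of Aldoa, Aldoc, Hk2 and Pkm, and in 32.7% of all. GTTAAT, a word from the site of the liver factor HNF-1, was in 1 of the 14, that of Gckr, and in 6.43% of all. These are matches of letters, and nothing in the arrays measured binding there. Mlxipl read 10.41, 10.36 and 9.52 in WT-27, WT-103 and WT-104, against 9.89, 9.46, 8.88 and 8.43 in knockout livers 03, 90, 91 and 94. Its groups overlapped through WT-104, and the difference of -0.94 ± 0.35 (SE) did not pass (limma adjusted p = 0.290). Mlx differed by -0.18.

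Hk1, the hexokinase of most tissues, was slightly higher in all knockout livers without passing the test. Probe set 1437974_a_at read 6.00, 5.88 and 5.98 in WT-27, WT-103 and WT-104, against 6.03, 6.44, 6.18 and 6.62 in knockout livers 03, 90, 91 and 94. The groups were apart by 0.04, KO-03 being nearest to wild type. The difference was 0.37 ± 0.15 (SE), with a 95% interval of 0.03 to 0.71 (limma adjusted p = 0.334). The dim second probe set, 1420901_a_at, differed by 0.57 (limma adjusted p = 0.255) and was at or under the floor in every liver. A further probe set lists Hk1 among 6 genes, with Rpl17, and was not used as a member.

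Hk2, the insulin-responsive hexokinase of muscle and fat, read 5.09, 5.54 and 5.75 in WT-27, WT-103 and WT-104, against 5.21, 5.50, 5.55 and 6.20 in knockout livers 03, 90, 91 and 94. The groups overlapped, with KO-94 highest. The difference was 0.16 ± 0.24 (SE), with a 95% interval of -0.39 to 0.70 (limma adjusted p = 0.833), and its sign turned without WT-27 or KO-94. Hk3, a hexokinase of white blood cells, read 6.32, 6.42 and 6.48 in WT-27, WT-103 and WT-104, against 6.39, 6.69, 6.32 and 6.57 in knockout livers 03, 90, 91 and 94 on probe set 1435490_at. These values overlapped, at a difference of 0.09 ± 0.12 (SE) with an interval of -0.19 to 0.36 (limma adjusted p = 0.813). The second probe set of Hk3, 1442798_x_at, differed in the other direction, by -0.25 (limma adjusted p = 0.583), and its groups overlapped too. For Hk2 and Hk3 a doubling lies outside the intervals.

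Gckr read 10.50, 10.94 and 10.20 in WT-27, WT-103 and WT-104, against 9.91, 10.53, 10.39 and 10.20 in knockout livers 03, 90, 91 and 94. The groups overlapped, with KO-03 alone below all wild-type livers. The difference was -0.29 ± 0.20 (SE), with a 95% interval of -0.75 to 0.18 (limma adjusted p = 0.608), and it ranged from -0.458 without WT-104 to -0.0891 without WT-103.

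Ratios of isozymes within a liver compare genotypes on a scale from which shifts shared by a whole array drop out. For each gene the probe set with the highest mean was used. Aldoa minus Aldoc was 1.14, 0.80 and 0.67 in WT-27, WT-103 and WT-104, against 2.74, 2.67, 2.98 and 2.96 in knockout livers 03, 90, 91 and 94. The groups were far apart, and the log2 ratio was higher by 1.97 in knockout, a 3.91-fold larger ratio. Pkm minus Pklr was -2.41, -2.63 and -1.42 in WT-27, WT-103 and WT-104, against -1.02, -0.78, -0.61 and 0.12 in knockout livers 03, 90, 91 and 94. These groups were apart as well, although neither gene alone passed the test. The means were -2.15 ± 0.64 (SD, n = 3) and -0.57 ± 0.49 (SD, n = 4), and the ratio was 3.0-fold larger in knockout. WT-104 was the wild-type liver nearest to the knockouts and KO-94 the farthest from wild type, and the difference of 1.58 ranged from 1.35 without WT-103 to 1.95 without WT-104. Over the 35 ways to split the livers, in an exact permutation test (two-sided), both ratios reached p = 0.0286, the smallest these splits allow. Both were at 0.0715 when adjusted over the 5 ratios, which does not pass. With only 2 ratios at the smallest p, a pass was out of reach however far apart their groups lay.

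The ratios among hexokinases were less distinct. Hk1 minus Hk3 was higher by 0.28 in knockout (exact permutation p = 0.0857, adjusted 0.143), Hk1 minus Hk2 by 0.21 (exact permutation p = 0.343, adjusted 0.429) and Hk2 minus Hk3 by 0.07 (exact permutation p = 0.743, adjusted 0.743). All of them overlapped between genotypes. Hk1 minus Hk2 was 0.08 without WT-104 and 0.42 without WT-27, and Hk2 minus Hk3 was -0.10 without KO-94 and -0.07 without WT-27.

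**Figure D3:**
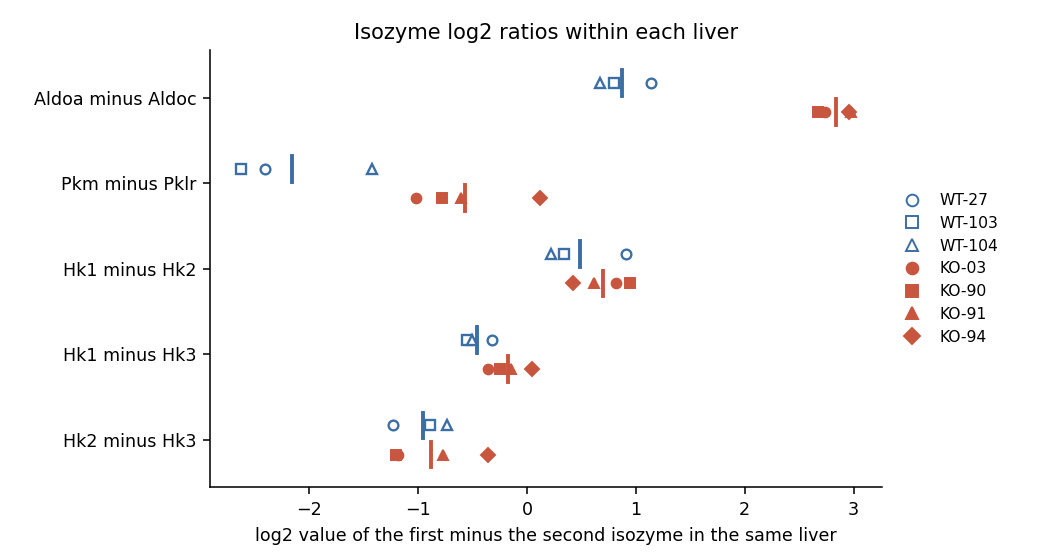
Log2 value of one isozyme minus that of another in the same liver (x axis) for 5 pairs (rows), open blue for wild-type and filled red for knockout livers, with a bar at each group's mean. Aldoa minus Aldoc spans 0.67 to 1.14 in wild type and 2.67 to 2.98 in knockout, and Pkm minus Pklr spans -2.63 to -1.42 and -1.02 to 0.12.

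Other enzymes of the path were measured through 10 of the 13 genes listed. Of these 10 genes of the steps that all tissues share, from phosphofructokinase to lactate dehydrogenase, 0 were called (median difference -0.03, against 0.013 over all 18193 genes), where 3 had an unadjusted p under 0.05. The smallest p was that of phosphoglycerate kinase, Pgk1, whose wild-type livers lay between 11.6 and 11.71 and whose knockout livers reached at most 11.3, apart in the direction opposite to Aldoa (-0.52, limma adjusted p = 0.0580). The platelet-type phosphofructokinase Pfkp followed with all its wild-type values at or under the floor, so that it was higher by at least 0.42 (limma adjusted p = 0.105 for the measured 0.78). With 1 probe set per gene, 1.87% of all genes were called higher and 0.511% lower. Against these shares 0 of 10 is near the background.

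Calls were made among genes that feed or regulate the path. The list held 12 measured genes of hexose entry and of the switches of glycolysis and pyruvate oxidation. Of these 1 rose, 2 fell and 9 did not pass (median 0.04, 6 with an unadjusted p under 0.05), against 1.87% and 0.511% of all genes. The one that rose was Pfkfb3, whose enzyme makes the sugar phosphate that activates phosphofructokinase. It read 4.32, 4.12 and 4.21 in WT-27, WT-103 and WT-104, against 5.97, 5.97, 6.60 and 5.66 in knockout livers 03, 90, 91 and 94. All wild-type values lay at or under the floor, so the rise was at least 1.15 on the log2 scale (limma adjusted p = 0.00399 for the measured difference of 1.83), and its second probe set, 1456676_a_at, was called too, at 0.58 measured and at least 0.22.

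Ketohexokinase, Khk, which starts fructose breakdown, fell from 11.26 ± 0.17 (SD, n = 3) to 10.38 ± 0.26 (SD, n = 4), by 0.88 (limma adjusted p = 0.0363). Pdk1, a kinase that switches off pyruvate dehydrogenase, fell from 8.28 ± 0.02 (SD, n = 3) to 7.59 ± 0.23 (SD, n = 4), by 0.69 (limma adjusted p = 0.0479). Of its other probe sets 1435836_at fell by 1.31 (limma adjusted p = 0.0315), 1423747_a_at was at -1.43 without passing (0.108) and 1434974_at lay at or under the floor throughout. Khk kept its call in 2 of the 7 fits without 1 array and Pdk1 in 1 of 7, with adjusted p up to 0.171 (Khk) and 0.186 (Pdk1), whereas Pfkfb3 kept it in all 7. Khk lost it when any 1 wild-type liver, KO-90 or KO-91 was left out, and Pdk1 when any 1 liver other than KO-90 was.

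Of 6 gluconeogenesis genes 0 were called (median 0.15, 1 with an unadjusted p under 0.05), with the phosphoenolpyruvate carboxykinases Pck2 at 0.52 and Pck1 at 0.47. Of 11 regulators 0 were called (median -0.10, 2 with an unadjusted p under 0.05). With 1.87% of all genes called higher and 0.511% lower, 0 of 6 and 0 of 11 are near the background. The smallest p of the regulators were those of the lipogenic factor Srebf1 at -1.10 (limma adjusted p = 0.207) and of Mlxipl. Hif1a, the hypoxia factor, was at -0.26, Myc at 0.02, and Ptbp1, a splicing factor that favours the fetal form of the Pkm transcript, at 0.15. The Pkm probe set does not separate the splice forms as far as its annotation says.

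Among 8 other genes listed for the step from fetal to adult liver 3 rose and 0 fell (median 0.37, 7 with an unadjusted p under 0.05). Of all genes 1.87% were called higher and 0.511% lower. The fetal serum protein Afp rose by 2.28 ± 0.19 (SE; limma adjusted p = 0.00150) on its brightest probe set. Its probe sets 1416645_a_at (at least 2.73) and 1436879_x_at (at least 0.39) were called too. Probe sets 1436880_at and 1436881_x_at lay at or under the floor throughout and were not called. The muscle-type glycogen synthase Gys1 rose by 0.69, the means being 5.68 ± 0.15 (SD, n = 3) and 6.38 ± 0.19 (SD, n = 4) (limma adjusted p = 0.0449). Mat1a, the methionine adenosyltransferase of the adult liver, rose as well, its means being 12.45 ± 0.10 (SD, n = 3) and 13.18 ± 0.17 (SD, n = 4), by 0.73 (limma adjusted p = 0.0271), so the 3 that rose include an adult form. The phosphorylases differed in opposite directions without passing, the brain and fetal form Pygb at 1.12 (limma adjusted p = 0.0722) and the liver form Pygl at -0.67 (limma adjusted p = 0.113). Gys2, the liver glycogen synthase, was at -0.72 (limma adjusted p = 0.334). Acly was at -1.10 (limma adjusted p = 0.0915), lower in every knockout than in every wild-type liver, and Alb was at 0.04. Afp kept its call in all 7 fits without 1 array. Gys1 and Mat1a kept theirs in 1 of 7 each, the fit without KO-03, with adjusted p up to 0.157 and 0.124.

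**Figure D4:**
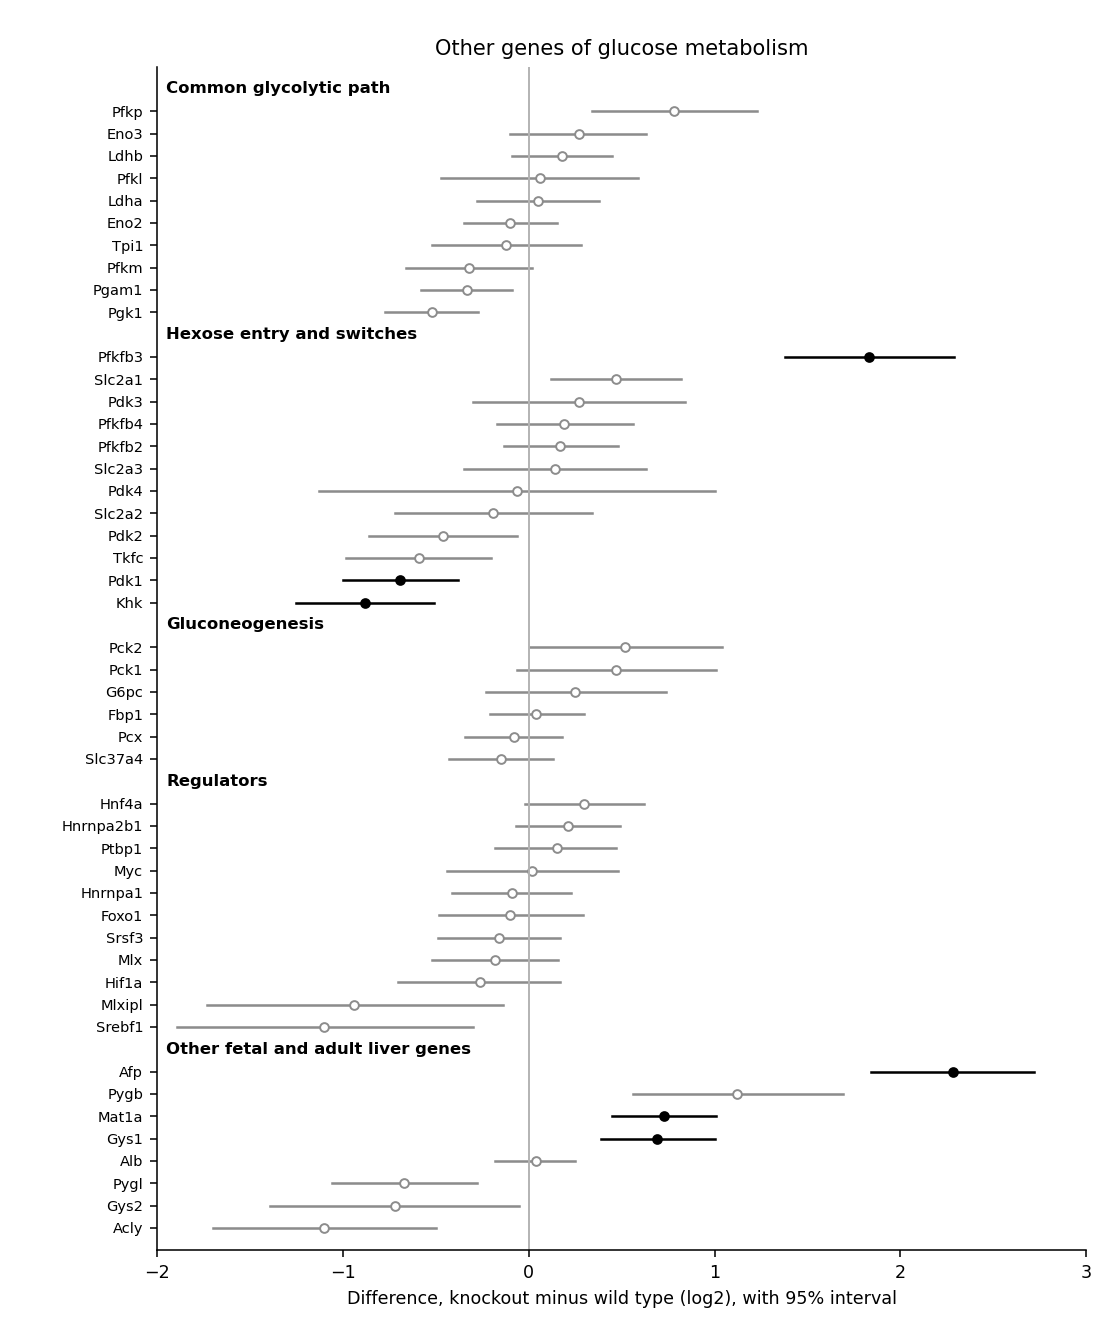
Difference between knockout and wild type on the log2 scale (x axis) for the 47 measured genes of 5 lists (rows), with lines for the 95% interval from limma. The lists are the common glycolytic path, hexose entry and switches, gluconeogenesis, regulators, and other fetal and adult liver genes. Afp, Mat1a and Gys1 are from the last list. Filled black points passed the adjusted threshold. Pfkfb3, Afp, Mat1a and Gys1 passed with knockout higher, Khk and Pdk1 with knockout lower, and the 10 genes of the common path lie between -0.52 and 0.78.

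The genes whose pattern over the 7 livers was most like that of Aldoa, by Pearson correlation with its brightest probe set among 18192 other genes, were Ccdc120 (r = 0.997), Pnpla6 (0.996), Necap2 (0.993), Eif3k (0.993) and Afp (0.992). Pnpla6 is a phospholipase, Necap2 an adaptor of endocytosis and Eif3k a subunit of a translation initiation factor. All 5 were called higher, by amounts from 0.50 (Eif3k) to 2.28 (Afp), and Ccdc120, at or under the floor in all wild-type livers, by at least 0.27. These correlations rest on 7 livers in 2 groups, which share the difference between genotypes. On the same measure Hk1 was at 0.79, Pkm at 0.69, Hk3 at 0.44, Hk2 at 0.29, Aldoc at 0.17, Gckr at -0.46 and Pklr at -0.77.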

How the data were processed

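Frozen liver gave total RNA, and biotin-labelled copies of it were put on Affymetrix arrays, per the labels' protocols. RMA and Partek are the tools that the submitters' processing notes name, and the deposited table holds the authors' log2 expression values, 1 per probe set and array. Versions of both tools are not given in the sources used, and no genome build is named, so promoter coordinates are those of the RefSeq table. Of 45101 probe sets 64 controls were left out. Platform annotation gave 1 symbol for 34945 of the rest and several for 932.

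All 45037 other probe sets were fitted with limma 3.58.1 (R 4.3.3; 5 residual and 3.80 prior degrees of freedom) for the difference of knockout from wild type, with Benjamini-Hochberg adjustment over them and a threshold of 0.05. Each list gene is represented by its brightest probe set, by mean across the arrays. "At least" marks a difference with the dimmer genotype raised to the floor. The members, lists and tests were chosen with earlier results of these data known. Named are all member probe sets, the called genes and the 2 smallest p of each pathway list, and the 5 genes most correlated with Aldoa. The other genes and markers named were chosen after their values were seen. Of 55 pathway entries 47 were analysed and of 45 marker entries 42. The fit was also run on simulated data with independent normal noise, which holds no shifts shared within an array. No result here rests on that run. Array number limits the precision. Python 3.11.15, pandas 2.3.3 and matplotlib 3.10.9 were also used.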

Additional observations from a re-analysis of the deposited data

Results flagged for a closer look

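Of 54 values checked for a knockout liver that stands apart from the other 3, 1 was found. Chance gives about 1 in 20 of the values checked, so 1 of 54 is no more than chance alone would give. KO-03 read 4.78 for Pfkp, against 5.45 to 5.56 in the other knockouts, and lay under the floor of its array, 4.86.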

How the results depend on the processing

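The 7 arrays limit every value. Over the whole table the calls higher moved from 582 to 1177 with array weights and lay between 172 (without WT-103) and 1112 (without KO-03) when 1 array was left out, and the calls lower moved from 144 to 407 and lay between 38 and 268 in the same 2 fits. Of the members, 5 were called higher as reported, 1 with 1 probe set per gene, 1 with the mean of all probe sets (the Aldoa mean rose by 1.70) and 0 without _x_at and _s_at probe sets, since that step removes all Aldoa probe sets. Calls lower were 0, but 3 with array weights and 0 to 1 without single arrays. Pathway calls lay between 2 and 6 higher and 0 and 2 lower without single arrays, and marker calls between 0 and 6. Hk1 minus Hk3 was 0.48 with the second probe set of Hk1, which lay at or under the floor in all livers. Ratios without 1 array are values with no test, since neither 3 against 3 nor 2 against 4 livers can reach 0.05; no ratio with Aldoa could be made without _x_at probe sets. Signs turned in Hk2 minus Hk3 (-0.10 without KO-94, -0.07 without WT-27) and in differences of single probe sets near 0: Aldoc 1451461_a_at (-0.125 with array weights, -0.00168 with renewed quantile normalization, -0.0919 without WT-27, -0.0637 without KO-90; -0.0919 to 0.177 over the fits without 1 array), Aldoc 1424714_at (-0.00242 without WT-103, -0.0839 without KO-90; up to 0.294), Hk2 (-0.0289 without WT-27, -0.0394 without KO-94; up to 0.302) and Hk3 (-0.0796 with the mean of its probe sets); the cause was not tested. Without 1 array the Hk3 probe sets ranged from 0.0204 to 0.144 (1435490_at) and from -0.364 to -0.145 (1442798_x_at). No paired analysis was possible because the groups share no replicate numbers.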
